A study of Homo sapiens with 96 samples.

Results

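A375 cells received cycloheximide together with triptolide, which blocks transcription. The mRNAs in their cytoplasmic fraction 1 h later were compared with those of cells given triptolide alone. A375, an established human skin melanoma cell line, carries an activating BRAF mutation. The comparison took 12 of the 96 libraries of the series, chosen by their labels: 3 libraries in each of 4 groups harvested at 1 h. The series as a whole has 32 groups of 3 libraries, from 2 pretreatments, 4 arms (vehicle, cycloheximide, triptolide, or both drugs) and 4 times (0, 1, 3 and 5 h).

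All cells spent 18 h in fresh medium with either DMSO or 500 nM vemurafenib plus 500 nM cobimetinib, inhibitors of BRAF and MEK that are together called MAPKi (written BRAF in the column labels). Both groups of each comparison then received 25 µM triptolide, which blocks initiation by RNA polymerase II. In the TCHX groups the triptolide followed 5 min after 100 µg/ml cycloheximide, which stops ribosomes during elongation, and in the T groups it followed DMSO. A comparison of TCHX with T therefore differs by cycloheximide alone. The protocol describes batches by harvest time, so 0, 1, 3 and 5 h came from separate batches. Whether the 12 libraries at 1 h were prepared together or in several runs is not stated. The column headers also carry a number that follows the replicate number in every group, and what it marks is not stated. All groups are drug-treated cultures of 1 line. The labels do not say whether the 3 libraries of a group came from separate cultures, so the p-values measure only the spread between these libraries, which may be technical.

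With no new transcription, an mRNA is lost at its decay rate. Many mRNAs are degraded while they are being translated. Nonsense-mediated decay needs a ribosome to read a stop codon, codon-dependent decay needs elongating ribosomes, and the mRNAs of immediate-early genes such as FOS and JUN have long been known to persist when translation is stopped. AU-rich elements in the 3′ untranslated region (3′UTR) recruit decay factors to many of these short-lived mRNAs. The comparison asked for which mRNAs the level after a short block of transcription depended on ongoing translation.

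The libraries were made with QuantSeq, which counts reads next to the poly(A) tail, from 500 ng of RNA each. Total counts of the 12 libraries ran from 4121487 to 12520154, with a median of 5925210. Pretreatment separated them on the first principal component (53.8% of the variance). On the second (8.75%) replicate 3 of T stood apart in both pretreatments, at 53.7 in DMSO and 51.0 in MAPKi against -32.3 to 11.4 in the other 10 libraries. These are also the shallowest libraries of their groups (4901719 and 4121487 counts), so results are given with and without them where they matter. The melanocyte lineage genes SOX10, S100B and MITF had 218 to 400, 215 to 327 and 290 to 523 CPM (each count relative to the total of its library), and of the pigment genes DCT had 27.1 to 2350.0 CPM, PMEL 1.02 to 17.4 CPM, and MLANA, TYR and TYRP1 at most 2.68 CPM. Summed markers of other cell types were as low in T as in TCHX, at 5.51 to 33.7 and 7.66 to 31.5 CPM for fibroblasts, with COL1A2, COL3A1, DCN and THY1 at 0 in all 12 libraries. They were at 0.187 to 2.81 and 1.17 to 2.55 CPM for immune and endothelial cells, with CD3E, CD4, MS4A1, PECAM1 and CDH5 at 0. The keratinocyte and epithelial sum was 98.5 to 142 CPM in T and 116 to 187 CPM in TCHX, with KRT5, KRT1, CDH1 and DSG3 at 0. Of its 9 markers 8 averaged under 1 CPM, so a single marker made up nearly all of this sum. The part of this sum in the results was not tested.

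Averaged over both pretreatments, 54 genes were higher in TCHX than in T and 2 were lower (edgeR quasi-likelihood test, Benjamini-Hochberg adjusted p under 0.05), out of 14948 genes tested. This is 0.361% of tested genes higher and 0.0134% lower, and 1139 and 166 genes reached an unadjusted p under 0.05. The 54 genes included the AP-1 subunits JUN and FOS, the stress sensor GADD45B, TXNIP, the SR protein kinase CLK1, the NF-kB inhibitor NFKBIA, the Notch-responsive repressor HES1 and KLF6. The splicing factor genes TRA2B, SRSF7, RBM5, PRPF38B and PRPF39 were also among them. Their median log2 difference was 0.72, from 0.35 for SOX9 to 1.74 for RGS16, against 0.07 for all tested genes. All 54 had a log2 difference above 0 in each pretreatment taken alone, and in 40 of them every TCHX library was above every T library in both. Of all tested genes, 157 (1.05%) had this separation upwards and 10 (0.0669%) had it downwards. The 54 were chosen by the average over both pretreatments in the same libraries. Their shared sign and separation therefore describe that choice and are no test of it. In bulk RNA, fewer cells and less RNA per cell cannot be told apart, and all levels here are relative to 36 genes whose share of the RNA rose after triptolide.

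JUN, which encodes a subunit of the AP-1 transcription factor, was the gene with the smallest adjusted p. It is a gene of 1 exon at chr1:58776845-58784048 (minus strand, GRCh38). In DMSO its normalised read counts (counts divided by the size factor of the library) were 84.5, 75.55 and 59.3 in T and 152, 164 and 126 in TCHX. In MAPKi they were 295, 380 and 483 in T and 1293, 1470 and 1514 in TCHX. The groups did not overlap in either pretreatment, and the higher starting level in MAPKi was kept on both sides of the comparison. The log2 difference was 1.00 ± 0.18 (SE) in DMSO, 1.89 ± 0.15 in MAPKi and 1.45 ± 0.12 on average (edgeR adjusted p = 0.00266, 6.99e-17 and 5.78e-16, n = 3 per group). Its partner FOS (chr14:75278826-75282230, plus strand) separated in MAPKi alone. Its normalised counts there were 30.1, 42.5 and 39.7 in T and 155, 149 and 185 in TCHX. In DMSO they were 16.2, 16.1 and 7.41 in T and 31.2, 13.9 and 42.1 in TCHX, and replicate 2 of TCHX lay below 2 of the T libraries. The average difference of FOS was 1.58 ± 0.25 (edgeR adjusted p = 1.91e-05, higher in 5 of 6 TCHX libraries than any T library of the same pretreatment).

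TRA2B and CCNL1 moved by the same amount in both pretreatments. TRA2B encodes a splicing activator whose gene has an ultraconserved poison exon, and lies at chr3:185914558-185938103 (minus strand). Its normalised counts in DMSO were 1900.0, 1993 and 1536 in T and 2859, 2710.0 and 3066 in TCHX. In MAPKi they were 921, 1178 and 1081 in T and 1446, 1716 and 1764 in TCHX. No T library reached any TCHX library of its pretreatment, and the log2 difference was 0.67 ± 0.10 in DMSO and 0.63 ± 0.10 in MAPKi (edgeR adjusted p = 5.96e-05 and 4.23e-05). CCNL1 (chr3:157146508-157160760, minus strand), the cyclin L1 partner of splicing-related kinases, had 348, 368 and 283 in T and 628, 512 and 597 in TCHX in DMSO. In MAPKi it had 356, 340 and 342 in T and 515, 552 and 726 in TCHX. The 2 arms were again apart in both, with a log2 difference of 0.79 ± 0.14 in DMSO and 0.79 ± 0.13 in MAPKi (edgeR adjusted p = 0.000892 and 0.000116).

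**Figure D1:**
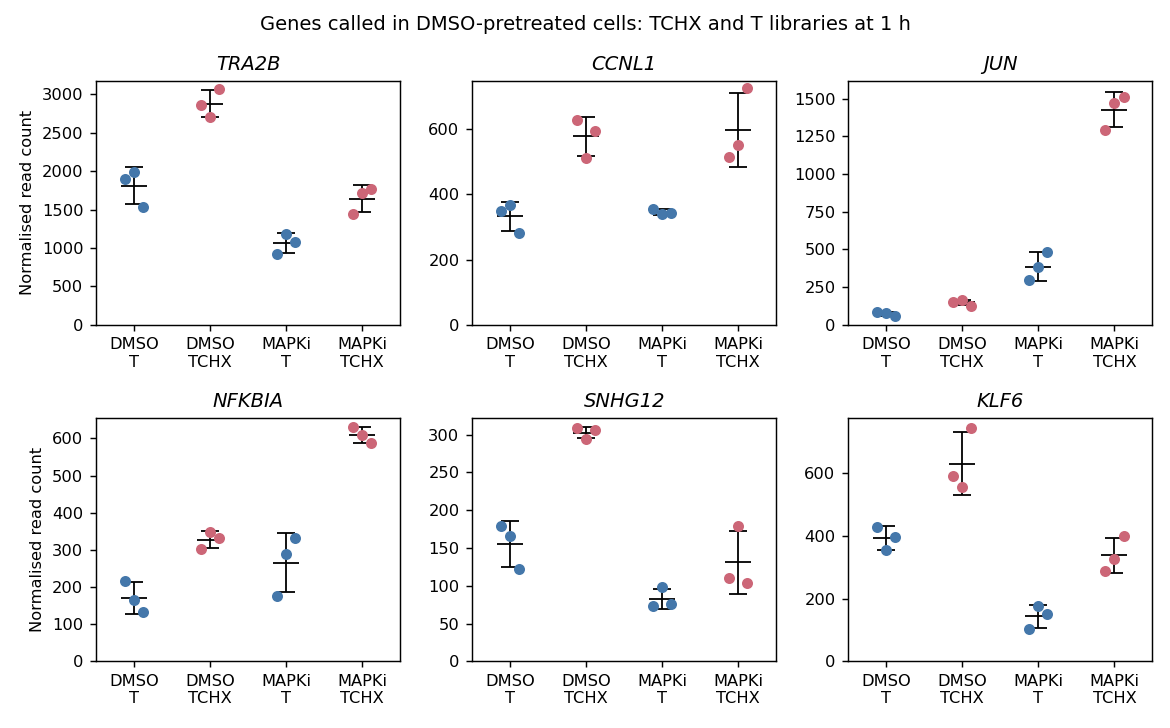
Normalised read count (y axis) of TRA2B, CCNL1, JUN, NFKBIA, SNHG12 and KLF6 at 1 h, 1 panel per gene, with a point per library and a bar for the mean ± SD of the 3 libraries of T and of TCHX in each pretreatment. These are the 6 genes higher with cycloheximide in DMSO-pretreated cells; JUN in MAPKi rises from 295 to 483 in T to 1293 to 1514 in TCHX, whereas in MAPKi the difference of SNHG12 did not pass the test.

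In the DMSO-pretreated cells alone, 6 genes were higher with cycloheximide and none was lower (0.0401% of tested genes higher). They were JUN, the snoRNA host gene SNHG12, NFKBIA, CCNL1, KLF6 and TRA2B. At an unadjusted p under 0.05, 399 genes were higher and 217 lower in edgeR. Together these are a smaller share of the tested genes than 0.05, so they are not read as further differences. DESeq2 called 14 genes. NFKBIA, which encodes the inhibitor that holds NF-kB in the cytoplasm, had 216, 164 and 132 in T and 303, 348 and 333 in TCHX (log2 0.93 ± 0.17, edgeR adjusted p = 0.00283). SNHG12, a spliced transcript whose introns hold small nucleolar RNAs, had 179, 166 and 122 in T and 308, 294 and 306 in TCHX (log2 0.95 ± 0.20, adjusted p = 0.0247). KLF6, a zinc finger transcription factor, had 430, 355 and 397 in T and 590, 556 and 745 in TCHX (log2 0.68 ± 0.15, adjusted p = 0.0321). All 3 TCHX libraries lay above all 3 T libraries for each of these genes. The count of 6 depended on all replicates. Without replicate 3 of T in DMSO, TRA2B alone was called (log2 0.56, adjusted p = 0.0353), while the other 5 kept log2 differences of 0.69 to 0.90. Without replicate 1 or 2 in every group 3 and 2 genes were called, and without replicate 3 in every group 0 genes were called, with 236 higher and 188 lower at an unadjusted p under 0.05. Reads of SNHG12 and of TRNAU1AP, which lies on the opposite strand, may have been mixed, since the strand used in counting is not stated.

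In the MAPKi-pretreated cells, 51 genes were higher and 4 lower (0.341% and 0.0268% of tested genes), and 1087 and 107 had an unadjusted p under 0.05. Among the 51 were 5 of the 6 genes called in DMSO, which is 83.3% of the DMSO list and 9.8% of the MAPKi list, and the exception was SNHG12. The separation was wide in TXNIP, GADD45B and CLK1. TXNIP, which restrains thioredoxin and glucose uptake, had 319, 593 and 654 in T and 1290.0, 1759 and 1755 in TCHX (log2 1.62 ± 0.19, edgeR adjusted p = 3.26e-09). GADD45B, a stress sensor upstream of p38 and JNK, had 181, 277 and 333 in T and 888, 806 and 1232 in TCHX (log2 1.89 ± 0.24, adjusted p = 1.17e-07). CLK1, a kinase that phosphorylates SR splicing factors, had 42.2, 48.0 and 62.6 in T and 177, 162 and 146 in TCHX (log2 1.68 ± 0.23, adjusted p = 5.71e-07). In these 3 genes the lowest TCHX library had more than the highest T library. In DMSO the same genes had log2 differences of 0.72 ± 0.19 for TXNIP, 0.91 ± 0.37 for GADD45B and 0.64 ± 0.22 for CLK1, none of which passed the test. The 55 calls in MAPKi became 33 with TMM size factors, 10 when only these libraries were fitted, 35 without replicate 3 of T in MAPKi, and 16 without replicate 1 in every group.

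The difference between the pretreatments was tested directly and called 0 genes in edgeR, with 427 genes at an unadjusted p under 0.05 in the direction of a larger cycloheximide difference in MAPKi and 161 in the other. Both directions together are a smaller share of the tested genes than 0.05. The smallest adjusted p was 0.78 in edgeR, and DESeq2 also called 0. Of the 54 genes, 48 had the larger log2 difference in MAPKi, with medians of 0.86 in MAPKi and 0.51 in DMSO, and 19 had an unadjusted p under 0.05 for the difference. The 54 were chosen in the same libraries, where 51 genes were called higher in MAPKi and 6 in DMSO. These counts therefore describe the 54 and are no test. Over all tested genes the median of MAPKi minus DMSO was 0.08. JUN had the smallest p of the 54, with 0.90 more on the log2 scale in MAPKi (unadjusted p = 0.000261). All tested genes had a median log2 difference of 0.03 in DMSO and 0.10 in MAPKi, and across all of them the log2 differences in the pretreatments had a Pearson correlation of 0.0192, a description over genes, which are not independent replicates.

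**Figure D2:**
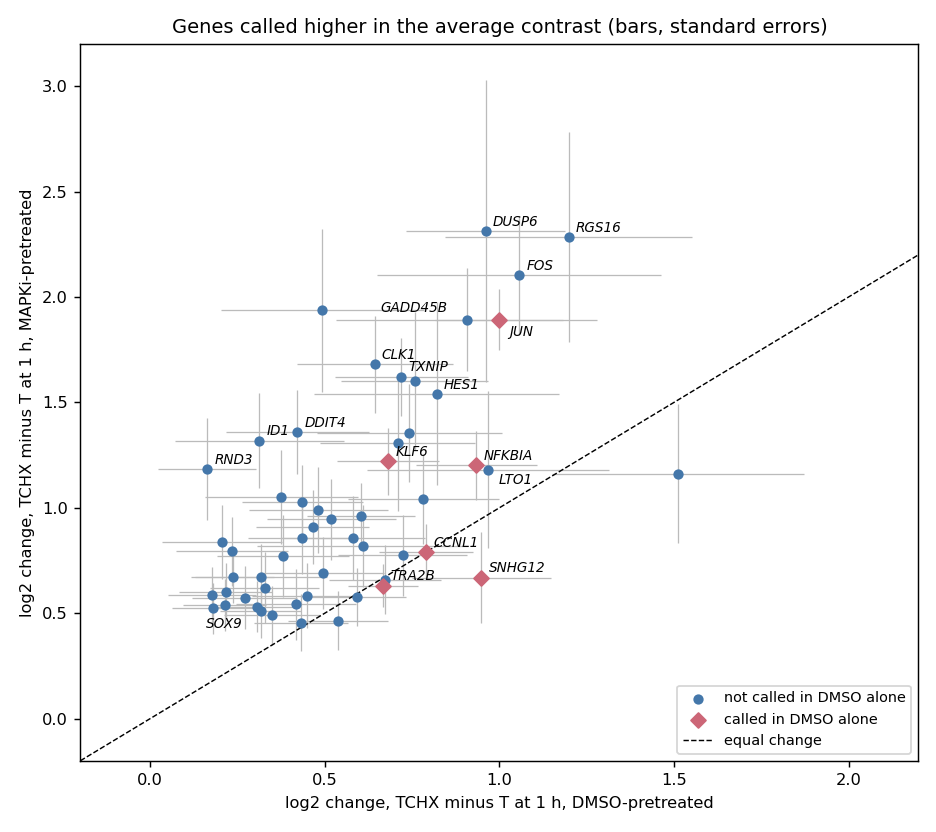
Log2 difference between TCHX and T at 1 h in DMSO (x axis) and in MAPKi (y axis) for the 54 genes higher on average, with standard errors as bars and a dashed line where both are equal. All points lie above 0 on both axes, 48 of the 54 lie above the line, and TRA2B (0.67, 0.63) and CCNL1 (0.79, 0.79) lie close to it. The genes were chosen by the average of both axes, so their position is no test.

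The level at 1 h as a percentage of the starting level shows the size of the difference in another unit. The 53 of the 54 genes that had at least 20 normalised counts at the start were compared with the 10330 tested genes that had as many, as a percentage of the vehicle level at 0 h. In DMSO the median gene of the 53 stood at 68.0% in T and at 95.96% in TCHX, against 92.9% and 94.7% for the 10330. In MAPKi it stood at 52.4% in T and at 95.2% in TCHX, against 90.3% and 96.03%. Under T, 11 of the 53 in DMSO and 26 in MAPKi were below 50% of their starting level, and under TCHX 0 and 1 were. The 53 were chosen by the same contrast, so these shares describe its size and are no test of it. JUN kept 44.9% ± 7.85 (SD, n = 3) of its level under T and 90.6% ± 11.9 under TCHX in DMSO, and 20% ± 4.86 and 73.9% ± 6.05 in MAPKi. NFKBIA kept 34.2% ± 10.3 and 78.6% ± 2.70 in MAPKi. TRA2B was at 71.3% ± 9.52 under T and at 113% ± 7.06 under TCHX in DMSO, and at 74.1% ± 9.09 and 115% ± 11.97 in MAPKi.

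**Figure D3:**
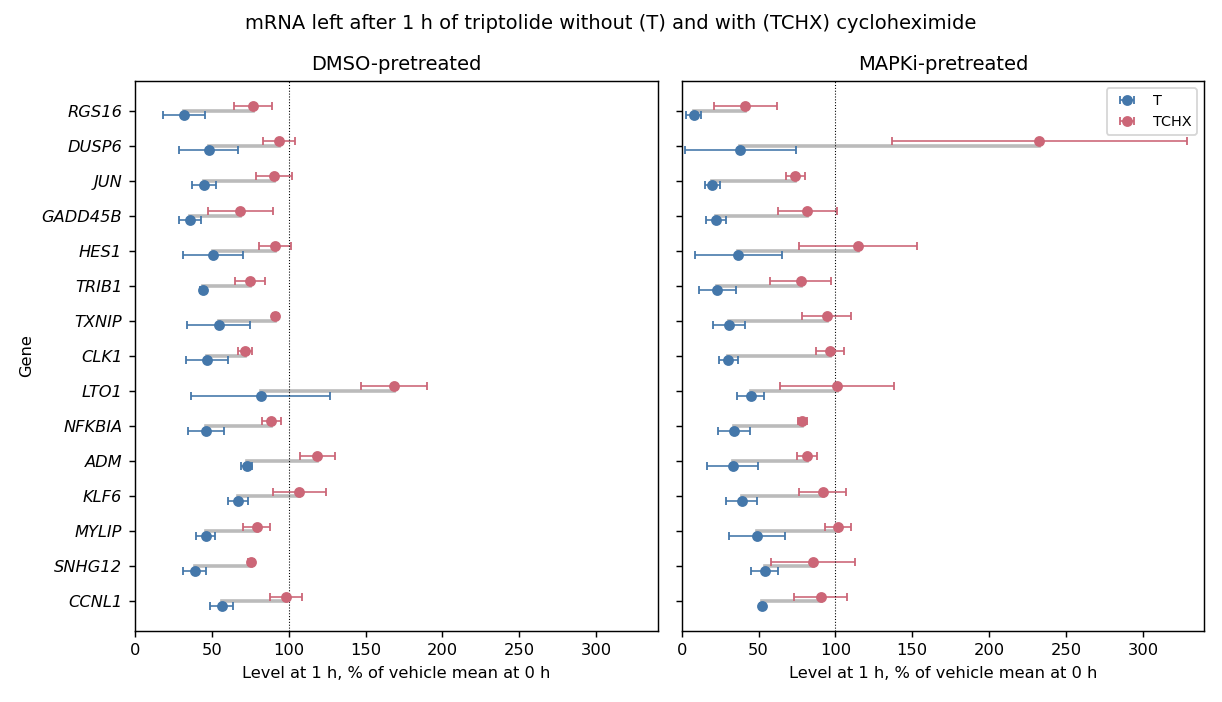
Level at 1 h as a percentage of the vehicle level at 0 h (x axis) for the 15 genes with the largest separated differences (y axis), under T and under TCHX in each pretreatment, points at the mean and bars at ± SD (n = 3). The TCHX points lie to the right of the T points for each gene and reach 90.6% for JUN in DMSO, while DUSP6 in MAPKi starts from only 7.90 normalised counts, and its TCHX share has the widest bar (SD 95.8).

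The immediate-early genes, the transcription factors and regulators switched on within minutes of a growth signal, held the most called genes of any list examined. Of 36 tested members 9 were higher (25% against 0.361% of all tested genes), with a list median of 0.53 against 0.07. The 9 were JUN, KLF6, FOS, TRIB1, IER2, PPP1R15A, SGK1, RHOB and ATF3, the last 4 named because they complete the count. IER2, a nuclear protein of the growth-factor response, had 500, 437 and 501 in T and 638, 678 and 624 in TCHX in DMSO. In MAPKi it had 125, 162 and 185 in T and 227, 305 and 313 in TCHX, and its average log2 difference was 0.65 ± 0.12 (edgeR adjusted p = 0.000272, all 6 TCHX libraries above all T libraries of their pretreatment). ATF3 lost its call without replicate 3 of T in DMSO and under 7 other settings. EGR1, another member, did not pass (1.38 ± 0.51, adjusted p = 0.318). In MAPKi it had 2.36 or fewer normalised counts in T and up to 8.21 in TCHX, while in DMSO it had 338, 259 and 191 in T and 359, 334 and 318 in TCHX, which overlap. MYC did not pass either (adjusted p = 0.573), with at most 27.4 normalised counts in T and 44.9 in TCHX in DMSO and 0 in every T library of MAPKi.

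The genes that feed back on ERK, the kinase at the end of the inhibited pathway, had 1 member higher of 22 tested, DUSP6, which encodes the ERK phosphatase MKP-3 (list median 0.27). In DMSO it had 1403, 1683 and 700 in T and 2756, 2214 and 2443 in TCHX, with the lowest TCHX library above the highest T library. In MAPKi its raw counts were 1, 8 and 1 in T and 11, 29 and 33 in TCHX, close to a floor of 3 counts. DUSP6 was no longer called without replicate 3 of T in MAPKi. RGS16, a GTPase activator for G proteins, was also close to the floor in MAPKi, with raw counts of 3, 8 and 1 in T and 8, 57 and 26 in TCHX. HES1, a Notch-responsive repressor, had 379, 470.0 and 203 in T and 703, 561 and 625 in TCHX in DMSO and 21.7, 101 and 41.2 against 107, 186 and 217 in MAPKi. It separated in both but lost its call without replicate 3 of T in either pretreatment.

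Genes of mRNAs reported as sensitive to nonsense-mediated decay came next in number of called members, with 6 of 32 tested higher (18.8%, median 0.20): TRA2B, GADD45B, DDIT3, SNHG12, PPP1R15A and ATF3. Of all tested genes 0.361% were higher, with a median of 0.07. PPP1R15A and ATF3 were already counted as immediate-early genes. TRA2B recurs among the splicing factor genes and SNHG12 among the snoRNA host genes, so these lists are not independent. A list of SR and poison exon splicing factor genes had 4 of 33 higher (12.1%, median 0.15), which were TRA2B, CLK1, RBM5 and SRSF7. A poison exon is a short exon with an early stop codon, and not every member of the list need have one. The snoRNA host genes had SNHG12 and SNHG17 of 25 (8%, median 0.16). GAS5, a host gene transcript known as a target of nonsense-mediated decay, did not pass (0.18 ± 0.08, adjusted p = 0.493). Its counts in DMSO were 644, 649 and 627 in T and 746, 835 and 795 in TCHX, which do not overlap, and in MAPKi 668, 646 and 759 against 710, 696 and 739, which do. Counting was on whole genes, so a spliced form with a poison exon cannot be told apart from the coding form. DDIT3, which encodes the stress transcription factor CHOP, had 101, 90.4 and 121 in T and 207, 214 and 209 in TCHX in MAPKi. Its log2 difference was 1.03 ± 0.18 there and 0.44 ± 0.17 in DMSO, where it did not pass. It shares its region with MARS1 and MBD6 on the other strand.

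Smaller groups had named members as well. Both called members of the 5 arrestin-domain genes, TXNIP and ARRDC3, are adaptors that send membrane proteins to degradation or uptake (median 0.32). Among 23 decay adaptors, ZFP36L1, an AU-rich element binding protein that recruits deadenylases, had 961, 1053 and 691 in T and 1299, 1388 and 1443 in TCHX in DMSO and 388, 467 and 377 against 701, 780 and 923 in MAPKi. It was 0.78 ± 0.11 higher on average (edgeR adjusted p = 1.31e-06, all 6 TCHX libraries above the T libraries of their pretreatment), and the deadenylase partner TOB2 was 0.52 ± 0.11 higher. In the ATF4 pathway DDIT4, an inhibitor of mTORC1, and DDIT3 were higher of 29 (median 0.05), while ATF4 itself was not (0.19 ± 0.11, adjusted p = 0.647). ID1 of 14 ID and SMAD genes, PLK2 of 21 p53 targets, NFKBIA of 19 NF-kB targets, EIF4A2 of 43 translation factors, BARD1 of 78 DNA repair genes and ZNF281 and ZNF503 of 405 zinc finger ZNF genes were the called members of their lists. The share of the ZNF list, 0.494%, is near the 0.361% of all tested genes. BARD1, the partner of BRCA1, was 0.38 ± 0.09 higher (adjusted p = 0.0119) and lost its call under 6 of 13 alternatives.

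Many other lists had no called member at 1 h. At that time 0.361% of all tested genes were higher (median 0.07), so no call in lists of these sizes is near that share. None was called among 76 ribosomal protein genes (median -0.01), 70 respiratory chain genes (-0.01), 71 mitosis genes (0.10), 59 DNA replication genes (0.09), 34 proteasome genes (0.06), 22 cholesterol genes (0.05), 35 genes of the decay machinery (0.08) and 17 NMD factors (0.09). The same held for the BCL2 family, tubulin, polyamine, heat shock, clock, MYC and MAX network, G1 cyclin, aminoacyl-tRNA synthetase, noncoding RNA and histone lists. At 5 h, where 41.7% of all tested genes were higher with cycloheximide and 0.528% lower (42.3% in all), 62 of the 71 mitosis genes and 63 of the 78 DNA repair genes were called, against 8 of the 76 ribosomal protein genes and 11 of the 70 respiratory chain genes. The 5 h split of 6238 higher and 79 lower became 2960 and 2081 with TMM size factors, so these counts depend on the scaling. The ribosomal protein genes RPL10A, RPL24, RPL29, RPL35A, RPL39 and RPLP1 are among the 36 genes that set the scale. The values of that list are therefore partly fixed by the scaling. Of single genes followed for reference, the apoptosis inhibitor MCL1 had an average difference of 0.34 ± 0.12 (adjusted p = 0.316) and was 2.43 ± 0.16 higher at 5 h. RP9 (0.33 ± 0.10, adjusted p = 0.172), ODC1 (0.22 ± 0.19), HMGCS1 (0.05 ± 0.12), TUBA1B (-0.04 ± 0.09), GAPDH (-0.06 ± 0.07), ACTB (0.03 ± 0.08) and the nuclear MALAT1 (0.08 ± 0.05) did not pass, and TUBB was not among the tested genes. In vehicle at 0 h MALAT1 had a mean of 42350 normalised counts in DMSO and 95080 in MAPKi. GAPDH had 50880 and 49800, so the cytoplasmic fraction was not free of nuclear RNA.

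**Figure D4:**
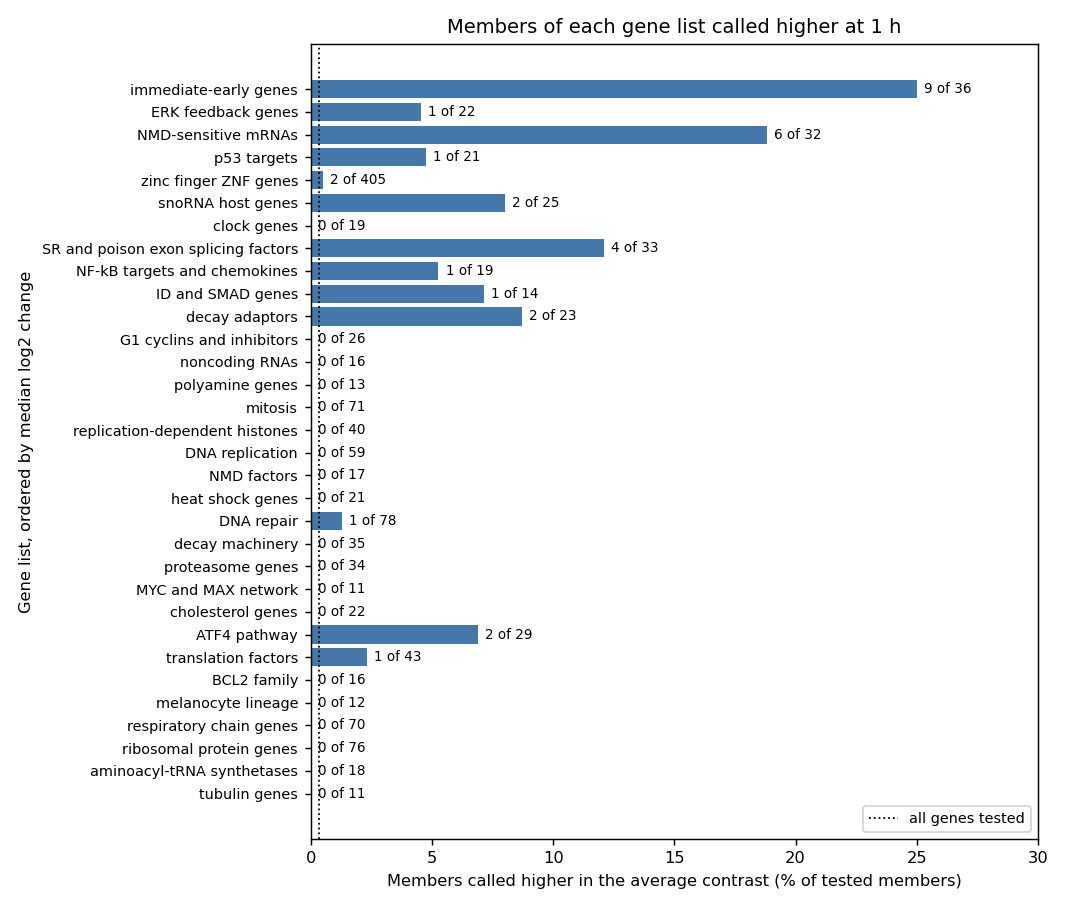
Percentage of the tested members of each gene list that were higher in TCHX than in T at 1 h on average (bars, x axis from 0), with the count of called and tested members beside each bar and a dotted line at 0.361%, the share of all tested genes. The immediate-early genes stand at 25% with 9 of 36 members, the NMD-sensitive mRNAs at 18.8% with 6 of 32, and the ribosomal protein genes at 0 of 76. For a list of that size, 0 called members is near the share of all tested genes. Some ribosomal protein genes are among the stable genes that set the scale. Lists with fewer than 10 tested members are not drawn.

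The 54 genes were then followed in contrasts that share no library with the 1 h contrast, although all libraries shared the filter, the spread and the size factors of the fit. With the 1 h contrast fitted on its own libraries, 42 of the 54 were called. At 0 h, harvested at once after triptolide, none of the 54 was called (1 gene of all tested was, lower in TCHX, 0.00669%) and their median log2 difference was 0.02, from -0.53 to 0.77, with 2 at an unadjusted p under 0.05. At 5 h, 53 of the 54 were higher in TCHX (98.1%, against 41.7% of all tested genes), and 47 were with TMM size factors. The median difference of the 54 grew from 0.72 at 1 h to 2.11 at 3 h and 2.39 at 5 h, while that of all tested genes went from 0.07 to 0.22 and 0.35. The exception was TRIB1, a pseudokinase adaptor for ubiquitin ligation. Its mean normalised count in DMSO was 171 in T and 288 in TCHX at 1 h but 6.21 and 12.1 at 5 h, and its difference at 5 h was 0.52 ± 0.32 (adjusted p = 0.204). Triptolide alone removed these mRNAs far more than most: from 0 to 5 h in T the 54 genes had a median log2 change of -3.67 against -0.61 for all tested genes, and 53 were below that median.

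JUN and TRA2B show 2 forms of the time course. In DMSO the mean normalised count of JUN under T was 157 at 0 h, 73.1 at 1 h, 6.96 at 3 h and 2.65 at 5 h, and under TCHX it was 167, 147, 107 and 62.2. In MAPKi it went from 1706 to 386, 24.1 and 11.1 under T, and from 1747 to 1426, 1024 and 755 under TCHX. The JUN difference thus widened at each time, to 5.30 ± 0.19 at 5 h. In DMSO, TRA2B went from 2448 to 1810.0, 1401 and 1248 under T and from 2518 to 2878, 1707 and 1621 under TCHX. Its difference was 0.65 ± 0.07 at 1 h, 0.40 at 3 h and 0.59 ± 0.07 at 5 h, so it was as large after 1 h as after 5 h. Beside TRA2B, the log2 difference was no larger at 5 h than at 1 h for EIF4A2, MYLIP, SNHG12, TAF1D, TRIB1 and 1 entry without a gene name, whereas it was larger for the other 47 genes.

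**Figure D5:**
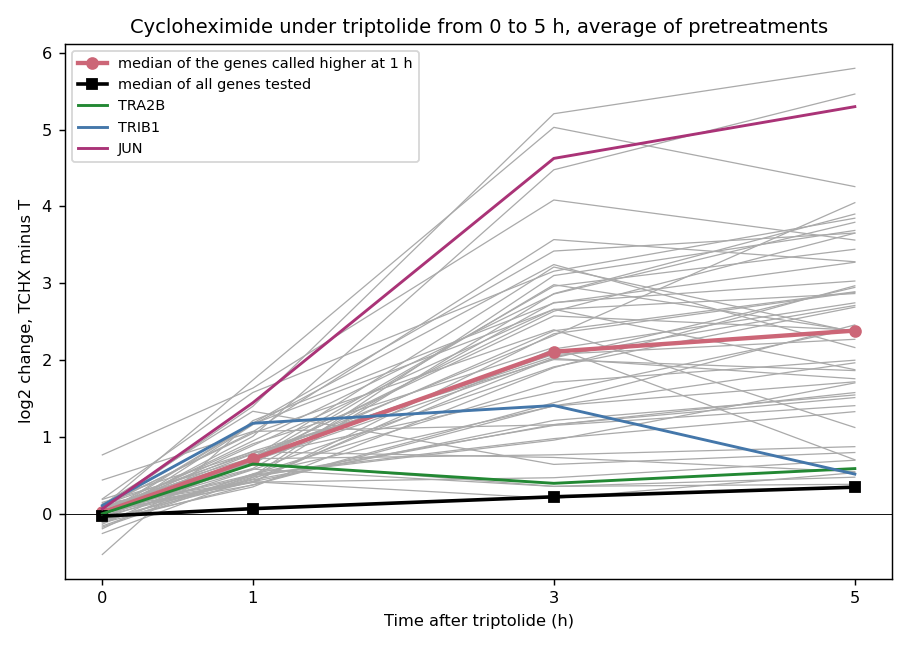
Log2 difference between TCHX and T, averaged over the pretreatments (y axis), against time after triptolide in h (x axis), for the 54 genes called at 1 h (grey lines), their median, the median of all tested genes, and JUN, TRIB1 and TRA2B. The median of the 54 rises from 0.02 at 0 h to 0.72, 2.11 and 2.39, that of all genes ends at 0.35, and TRA2B stays between 0.40 and 0.65 from 1 h on.

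Cycloheximide was also given for 1 h without triptolide, against vehicle, in 12 further libraries. There 80 genes were higher and 1 lower (0.535% and 0.00669% of tested genes, 0.542% in all), and 33 of these 80 were among the 54, which is 61.1% of the 54 and 41.2% of the 80. The 81 calls became 23 with TMM size factors, of which 13 were among the 54, 36 with stable genes taken at 3 or 5 h, and 15 and 28 without replicate 1 or 2. All 54 had a log2 difference above 0 with cycloheximide alone, with a median of 0.50 against 0.10 for all tested genes. JUN was 1.56 ± 0.10 higher with cycloheximide alone and 1.45 ± 0.12 higher under triptolide, and TXNIP 1.41 ± 0.13 and 1.17 ± 0.13. FOS (1.49 ± 0.16), DDIT4 (0.80 ± 0.14) and IER2 (0.83 ± 0.11) were called with cycloheximide alone too. NFKBIA was not (0.32 ± 0.11, adjusted p = 0.221), nor were RGS16 (0.59 ± 0.23) and DUSP6 (0.43 ± 0.21). The vehicle level of these genes differed between 0 and 1 h. In DMSO the mean normalised count of NFKBIA at 0 and 1 h was 369 and 971 with vehicle. With cycloheximide it was 385 and 967. The MAPKi values were 776 and 1083 with vehicle, and 781.5 and 1696 with cycloheximide. The vehicle mean of RGS16 was higher at 1 h in DMSO (157.5 against 73.1) and lower in MAPKi (29.2 against 48.3). For DUSP6 it was lower in DMSO and higher in MAPKi. The change of vehicle over time was not tested. In 9 of the 54 the difference was larger without triptolide than with it. Whether the 2 differences are unequal was not tested.

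The 3′UTRs of the 54 genes were read from the GENCODE v44 annotation of GRCh38. For the 49 that are coding and could be matched, the median 3′UTR had 1312 bases and an A+U content of 61.8%, against 1380 bases and 58.4% for 11944 tested genes with a 3′UTR. The pentamer ATTTA was present in 43 of the 49 (87.8%) and in 74.7% of all, with a median of 2.75 and 1.79 copies per 1000 bases. The nonamer TTATTTATT, which contains ATTTA and is the core of the AU-rich element, was present in 8 of the 49 (16.3%) and in 10.0% of all. Only the sense strand was searched. The median gene of the 49 had 4 exons and 1176 coding bases, against 9 exons and 1425 bases, and the G+C content at the third codon position was 57.0% and 57.9%. These are descriptions of the annotated transcript. A site from each of 5 genes described above is given on the sense strand with the nonamer in capitals, to show the element as it stands in mRNAs that differed at 1 h: FOS at chr14:75282060-75282088 (plus strand), RGS16 at chr1:182598868-182598896 (it has another at chr1:182598719-182598747), ZFP36L1 at chr14:68788077-68788105, DDIT3 at chr12:57516616-57516644 and PLK2 at chr5:58454066-58454094 (all minus strand).
FOS: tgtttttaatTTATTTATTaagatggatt
RGS16: ggtgctgttgTTATTTATTattgtaattt
ZFP36L1: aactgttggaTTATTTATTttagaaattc
DDIT3: gattgtacatTTATTTATTactgtcccta
PLK2: aataaactttTTATTTATTacagcccaaa
JUN, TXNIP and TRA2B have no such nonamer in the annotated 3′UTR.

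A global measure of the same contrast, the index of translation-dependent decay at 1 h, was the normalised count in TCHX minus that in T, divided by the vehicle level at 0 h, taken as the median over 10330 genes. It was -0.0038, 0.0043 and 0.0545 in the 3 replicates of DMSO and 0.0230, 0.0679 and 0.105 in those of MAPKi. The mean was 0.0183 ± 0.0316 (SD, n = 3) in DMSO and 0.0653 ± 0.0411 in MAPKi. Each value sets libraries of the same replicate number against each other. The ranges overlap, although the MAPKi value was higher at each of the 3 numbers (difference 0.0470 ± 0.0187, SD), and a two-sided unpaired exact permutation test gave p = 0.2, where 3 against 3 libraries cannot go below 0.1. With TMM size factors the difference turned to -0.00237.

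Across 13 alternative settings, all 54 genes kept a log2 difference above 0, and 23 to 54 of them were still called. The genes called in every setting were CCNL1, CLK1, DDIT4, EIF4A2, FOS, JUN, KLF6, MYLIP, NFKBIA, PPP1R15A, TENT5A, TRA2B, TXNIP and ZFP36L1, 14 in all. Leaving out replicate 3 in every group left the fewest (23), leaving out replicate 1 left 26 and replicate 2 left 32, and leaving out replicate 3 of T in both pretreatments left 39. LTO1, PLK2 and ATF3 each lost their call under 8 of the 13, HES1, SOX9 and ZNF281 under 7, DUSP6 and ID1 under 4, and RGS16, GADD45B, TRIB1, DDIT3 and IER2 under 1. EIF4A2 overlaps RFC4, LTO1 overlaps CCND1 and ARRDC3, TAF1D and RBM5 overlap other genes, so that their counts may include reads of these neighbours.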

How the data were processed

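RNA of the cytoplasmic fraction was measured by QuantSeq in 96 libraries, of which the 12 harvested at 1 h under triptolide make the main comparison. The authors trimmed reads with fastp 0.20.1, mapped them to GRCh38.p13 with HISAT2 2.2.1 and deposited raw counts per gene from HTSeq 0.13.5. The strand used in counting is not given in the sources used here. Counts were analysed with edgeR 4.0.16 in R 4.3.3. filterByExpr kept 14948 of 44659 entries, and all 96 libraries entered a single quasi-likelihood fit of 32 group means, with two-sided tests. Size factors were DESeq2 1.42.0 medians of ratios over 36 stable genes, adapted from the study: its rule asks for a rise of CPM at 3 or 5 h of triptolide, read here as both, with either (526 genes) as an alternative. The rise was required in the T arm only. Contrasts were TCHX minus T per pretreatment, their average and their difference. The lists and tests were chosen with earlier results of these data known. Genes were named by size with separated libraries (15), by up to 3 called members per list, and from a fixed set of 16. The others were chosen after their values were seen. Alternatives were other size factors, no filter, DESeq2, a replicate block, fewer libraries and left-out replicates. Reads have no molecular identifiers, so the floor of 3 counts covers counting error only. Gene positions came from GENCODE v44, matched by symbol for 13196 of the tested genes, with 85 ambiguous and 1667 unmatched.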

Additional observations from a re-analysis of the deposited data

How the results depend on the processing

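Most calls at 1 h moved with the settings. The DMSO count of 6 became 10 with stable genes taken at 3 or 5 h, 24 without a filter on low counts and 14 with DESeq2, and 0 to 6 when libraries were left out. The MAPKi count of 55 became 33 with TMM, 119 without the filter, 91 with DESeq2 and 10 when only its own libraries were fitted, and 16 to 52 with libraries left out. The average count of 56 became 146 without the filter, 112 with DESeq2 and 23 to 56 with libraries left out. The difference between pretreatments stayed at 0 genes except for 13 without the filter. At 0 h the single gene became 0 with total counts, 12 without the filter, 0 with its own libraries and 0 to 1 with libraries left out. At 5 h 6317 genes became 4999 to 6344 with libraries left out, and the split of 6238 higher and 79 lower became 2960 and 2081 with TMM. For cycloheximide alone the 81 genes became 23 with TMM, 42 with total counts, 36 with stable genes at 3 or 5 h, 132 with DESeq2 and 15 to 83 with libraries left out. With TMM the MAPKi index of 0.0653 became 0.00248 and the difference between the indices reversed from 0.0470 to -0.00237. Named genes kept their side of the threshold in 704 recalculations, lost a call in 152 and gained one in 2. Without replicate 3 of T at 1 h in both pretreatments, the counts were 1 in DMSO, 35 in MAPKi and 41 on average. Leaving out these T libraries, singly or together, was added after the data had been seen. Stable genes of both triptolide arms gave 1 gene with a zero count, so no size factor could be computed. With a replicate block the pairing changed few counts: 6 in DMSO, 55 in MAPKi, 64 on average, 0 for the difference, 1 at 0 h, 6452 at 5 h and 94 for cycloheximide alone. To check the pairing, the mean of each group was subtracted from its log2 normalised counts, and the remainders of T and TCHX libraries were correlated over genes. Libraries of the same number gave 0.109, -0.183 and 0.127 in DMSO and 0.108, 0.585 and -0.195 in MAPKi. Unlike numbers gave -0.363 to 0.342 in DMSO and -0.62 to 0.525 in MAPKi, so the numbers were not used as pairs in the main fit. The decay index alone sets same-numbered libraries against each other. The cause of these changes was not tested.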

Other observations

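The 4 genes lower with cycloheximide in MAPKi at 1 h were each high in only 1 or 2 libraries of the T arm. XAGE1B, a cancer-testis antigen gene, had 797 counts in replicate 3 of T in MAPKi and 4 to 31 in the other 11 libraries. Its near-identical copy XAGE1A had 1647 counts in replicate 2 of the same group and 9 to 34 elsewhere. XAGE1B had 13 counts in that replicate 2, and XAGE1A had 12 in replicate 3. How reads were assigned within the pair was not tested. The mitochondrial tRNA gene TRNM had 931 counts in replicate 1 and 64 to 171 elsewhere. The entry MTCH2_1 had 69 and 57 counts in replicates 1 and 2 of that group and 2 to 14 elsewhere. At 0 h the only called gene, EIF3C, had 491 counts in replicate 2 of T in MAPKi and 14 to 55 in the other 11 libraries. The other gene lower on average was an entry without a gene name with 3 counts or fewer in all of the 12 libraries but 1.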
